A study of Mus musculus with 15 samples.

Results

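The 10 genes described here encode enzymes of glycolysis and its last, fermentative step: Hk1 and Hk2 (hexokinases), Gpi1 (glucose-6-phosphate isomerase), Pfkl (the liver-type subunit of phosphofructokinase), Aldoa (aldolase), Gapdh (glyceraldehyde-3-phosphate dehydrogenase), Pgk1 (phosphoglycerate kinase), Eno1 (enolase), Pkm (pyruvate kinase) and Ldha (lactate dehydrogenase). They were chosen by name, as 10 of 21887 protein-coding genes, and every called peak that overlapped a gene span widened by 2500 bp on each side was collected. Of 95112 called peaks in 12 libraries, 121 lay in these windows, all of them counted with the mouse build mm10 and positions from 1. The cells were HPC-7, a mouse early blood cell line made from embryonic stem cells. Each library was made by CUT&Tag, in which an antibody brings a transposase to its target so that the nearby DNA is cut and tagged, from about 150000 cells.

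Control cells, titled wild type and named after a luciferase shRNA in the descriptions, were profiled for H3K4me3, YY1 and SMC3, while for the knockdown arm, which carried a short hairpin RNA targeting YY1 and is called shYY1 here, only the SMC3 libraries were analysed. Each of these groups had 3 libraries, called biological replicates in the protocol. The first SMC3 library of each arm carries the name Abcam in its description and the others do not. The protocol names a single SMC3 antibody, from Abcam, for all of them. Neither the number of clones nor the extent of the YY1 knockdown is given in the sources used here. The 3 IgG libraries were not analysed here. H3K4me3 lists held 16763 to 17895 peaks, YY1 lists 3750 to 10699, control SMC3 lists 2061 to 4595 and shYY1 SMC3 lists 2631 to 3213. Replicate 3 of YY1 and replicate 3 of control SMC3 were the shortest lists of their groups. The lists carry no read counts, so depth is unknown and a peak tells where signal was called, not how much of the protein was there. As a check of the cell label, H3K4me3 lay at 12 of 12 blood progenitor genes such as Kit, Tal1 and Gata2, at 0 of 4 pluripotency genes and at 0 of 8 genes of liver, nerve, muscle, islet and epithelium, each counted as called in at least 2 of 3 libraries. Of the markers of mature blood cells, 1 of 4 erythroid, 1 of 5 lymphocyte and 2 of 5 myeloid genes had it.

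Glycolysis converts glucose to pyruvate, first spending ATP on phosphorylated sugars and then regaining it in the steps from glyceraldehyde-3-phosphate onwards, and lactate dehydrogenase turns pyruvate into lactate so that the pathway can run on. Blood stem cells are known for a strong reliance on it. H3K4me3 marks the starts of active or poised genes, YY1 is a zinc finger factor that binds many such promoters, and SMC3 is a subunit of cohesin, the ring that holds and loops DNA. The glycolytic genes are classic targets of the hypoxia-inducible factors and of Myc, which bind the short motifs ACGTG and CACGTG.

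Start windows of 5 of the genes are shown first, picked after the values were seen, to set 3 genes with closely stacked YY1 and SMC3 summits (Pgk1, Eno1 and Aldoa) beside 1 with fewer SMC3 calls (Hk2) and 1 with YY1 only (Gpi1). A summit is the highest point of a called peak. Each line gives 300 bases from RefSeq (GRCm38.p6, the assembly of mm10), 5′ to 3′ on the gene's own strand, from 250 bases before to 50 bases after an annotated gene start. Capitals mark the stretch from the first to the last YY1 or SMC3 summit of all libraries that lay in the window. Pgk1 is on the plus strand at chrX:106186850-106187149, Eno1 on the plus strand at chr4:150236947-150237246, Aldoa on the minus strand at chr7:126799205-126799504, Hk2 on the minus strand at chr6:82774405-82774704 and Gpi1 on the minus strand at chr7:34230287-34230586.
Pgk1: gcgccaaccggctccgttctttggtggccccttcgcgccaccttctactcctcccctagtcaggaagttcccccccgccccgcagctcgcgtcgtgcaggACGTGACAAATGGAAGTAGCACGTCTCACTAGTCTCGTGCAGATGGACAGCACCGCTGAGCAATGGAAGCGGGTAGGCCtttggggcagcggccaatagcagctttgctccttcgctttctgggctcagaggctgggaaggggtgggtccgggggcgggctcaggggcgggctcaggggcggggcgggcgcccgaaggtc
Eno1: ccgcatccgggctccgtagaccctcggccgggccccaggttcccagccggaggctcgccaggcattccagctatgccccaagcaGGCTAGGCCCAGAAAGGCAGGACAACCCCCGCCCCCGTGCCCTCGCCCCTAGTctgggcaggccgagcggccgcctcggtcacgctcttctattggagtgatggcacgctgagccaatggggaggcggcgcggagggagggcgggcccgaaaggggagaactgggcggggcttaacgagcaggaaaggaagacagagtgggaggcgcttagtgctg
Aldoa: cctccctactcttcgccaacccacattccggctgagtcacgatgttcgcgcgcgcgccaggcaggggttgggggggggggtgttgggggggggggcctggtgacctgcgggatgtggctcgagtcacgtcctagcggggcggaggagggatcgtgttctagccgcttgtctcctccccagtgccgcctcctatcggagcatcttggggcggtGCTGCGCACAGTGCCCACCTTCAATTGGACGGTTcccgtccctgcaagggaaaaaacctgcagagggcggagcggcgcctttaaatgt
Hk2: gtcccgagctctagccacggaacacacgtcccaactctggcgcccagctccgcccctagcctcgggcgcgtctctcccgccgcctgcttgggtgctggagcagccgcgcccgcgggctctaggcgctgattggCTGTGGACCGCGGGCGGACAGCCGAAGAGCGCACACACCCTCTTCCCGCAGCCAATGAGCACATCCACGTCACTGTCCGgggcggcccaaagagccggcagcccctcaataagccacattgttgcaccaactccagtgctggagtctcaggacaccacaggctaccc
Gpi1: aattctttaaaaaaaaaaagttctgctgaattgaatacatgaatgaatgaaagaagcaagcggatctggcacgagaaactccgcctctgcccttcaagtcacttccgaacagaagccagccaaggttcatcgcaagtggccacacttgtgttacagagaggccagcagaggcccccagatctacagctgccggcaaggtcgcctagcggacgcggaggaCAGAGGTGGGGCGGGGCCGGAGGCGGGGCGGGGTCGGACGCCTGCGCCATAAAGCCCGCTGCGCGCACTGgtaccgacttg

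In Pgk1 and Eno1 the capitals hold 9 summits each, 3 of YY1, 3 of control SMC3 and 3 of shYY1 SMC3, within 79 and 53 bases. At Aldoa 8 summits, 3 of YY1 and 5 of SMC3, fell within 34 bases, the tightest stretch of the 5. At Hk2 there were 5 summits within 79 bases, 2 of them YY1, and its other 3 YY1 summits lay outside the window. At Gpi1 there were 2, both YY1, within 70 bases. The 5 windows had a GC content of 66.7% (Pgk1), 69.0% (Eno1), 65.7% (Aldoa), 67.3% (Hk2) and 57.3% (Gpi1), beside a median of 56.3% over 21230 such windows of protein-coding genes.

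All 10 genes carried H3K4me3 in 3 of 3 libraries. Over all 21887 protein-coding genes, 53.2% had it in at least 2 of 3 libraries and 52.4% in 3 of 3. All 10 also carried YY1 in at least 2 of 3 libraries, beside 34.6% of all genes and 64.8% of the genes with H3K4me3. YY1 was called in 3 of 3 libraries at 7 genes (17.9% of all genes), and at Hk2, Gpi1 and Ldha it was missing from replicate 3, the shortest YY1 list. Replicates 1 and 2 without replicate 3 had YY1 at 16.4% of all genes. SMC3 split the genes. In at least 2 of 3 control libraries it was called at 7 genes (17.5% of all genes, 32.6% of those with H3K4me3), and in at least 2 of 3 shYY1 libraries at 5 (13.2% and 24.7%). In 3 of 3 libraries it was called at 3 genes in control (9.02%) and at 4 in shYY1, which added Aldoa (8.85%). Hk1, Pgk1 and Eno1 had SMC3 in 6 of 6 libraries (6.84% of all genes and 19.7% of genes with both H3K4me3 and YY1). Gpi1 and Ldha had it in 0 of 6, where the shares were 73.6% and 28.8%. The other 5 genes lay between, with 5 libraries at Aldoa, 4 at Pkm, 3 at Hk2, 3 at Gapdh and 2 at Pfkl. The same counts of 10, 10, 7 and 5 genes were found within 1000 bp of an annotated gene start, where the shares of all genes were 47.6% for H3K4me3, 29.2% for YY1, 14.2% for control SMC3 and 10.9% for shYY1 SMC3.

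**Figure D1:**
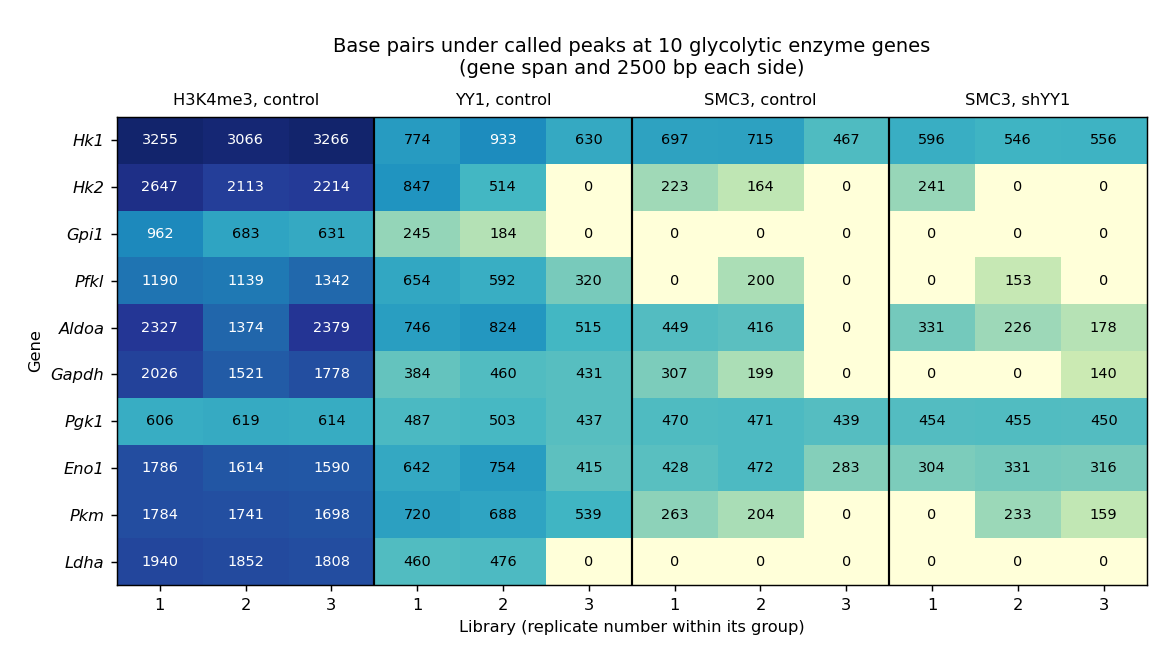
Base pairs under called peaks at each gene (rows) in each library (columns, 3 per group), printed in each cell and shaded on a log scale from pale (0) to dark. H3K4me3 fills every cell, YY1 is at 0 in 3 cells of its replicate 3, and SMC3 is above 0 in all 6 libraries only at Hk1, Pgk1 and Eno1.

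Hexokinase traps glucose in the cell by phosphorylating it, and the 2 hexokinase genes differed. Hk1 (chromosome 10, 62268855 to 62379920, minus strand) had not 1 but 2 sites at which H3K4me3, YY1 and SMC3 were called together in every library. The first lay over the annotated start at 62340421, with H3K4me3 regions that together spanned 62339325 to 62341212 and YY1 or SMC3 peaks within 62340114 to 62340616. The second lay inside the gene at 62327408 to 62327859, where the median YY1 or SMC3 summit was 12665 bp from the nearest start in the RefSeq table. The outer annotated start of Hk1, at 62379908, had no peak of any target over its 300-base window. YY1 peaks at the first site were 415, 481 and 348 bp long in replicates 1, 2 and 3, and at the second 359, 452 and 282 bp.

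SMC3 peaks at the start of Hk1 measured 344, 357 and 254 bp in the control libraries and 383, 286 and 382 bp in the shYY1 libraries. At the inner site they measured 353, 358 and 213 bp in control and 213, 260 and 174 bp in shYY1. The ranges overlapped at both sites. Over both sites, SMC3 covered 626 ± 138 bp in control and 566 ± 26.5 bp in shYY1 (SD, n = 3), a difference of -60.3 bp with an exact two-sided permutation p of 0.4. Counting only peaks within 1000 bp of a start turned the difference to 32.0 bp, so the 2 sites went in opposite directions. Leaving out 1 library gave from -140 bp (without control replicate 3) to -16.0 bp (without control replicate 2). The annotated non-coding gene Hk1os (62340234 to 62363611) has an end within the first site, and a peak there cannot be assigned to either gene.

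Hk2, the hexokinase gene that many tissues switch on when they proliferate, showed fewer calls (chromosome 6, 82725025 to 82774454, minus strand). Its start at 82774454 had YY1 peaks of 266 and 288 bp in replicates 1 and 2 and none in replicate 3. SMC3 peaks there measured 223 and 164 bp in control replicates 1 and 2 and 241 bp in shYY1 replicate 1, with no peak in the other 3 libraries. The 2 arms therefore overlapped, at 129 ± 116 bp in control and 80.3 ± 139 bp in shYY1 (SD, n = 3; exact permutation p = 1). The difference of -48.7 bp became -129 bp without shYY1 replicate 1 and -1.67 bp without control replicate 1. A second YY1 site lay inside the gene at 82764021 to 82764276 in 2 libraries, over an H3K4me3 region called in 3 of 3, and had no SMC3 in any library. The third, at 82773383 to 82773707, was called in YY1 replicate 1 only.

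Gpi1, whose enzyme turns glucose-6-phosphate into fructose-6-phosphate, had the fewest base pairs under YY1 peaks (chromosome 7, 34201327 to 34230336, minus strand). Its YY1 peaks, 245 and 184 bp long in replicates 1 and 2, had summits 38 bp inside and 31 bp before the start. They ranked at the 32.6 and 9.2 percentile of length in their own lists. H3K4me3 peaks of 962, 683 and 631 bp lay over the start. No SMC3 peak was called in either arm. In a window of 5000 bp Gpi1 would count as having SMC3 in all 6 libraries, through peaks within 34234038 to 34234407, about 3700 bp from the gene (3702 bp in control replicate 1) and over the far end of the non-coding gene Gm12762.

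Pfkl encodes a subunit of phosphofructokinase, the committed step of the pathway (chromosome 10, 77986947 to 78009807, minus strand). Its YY1 peaks measured 654, 592 and 320 bp and were centred inside the gene, with summits 438, 438 and 281 bp from the start. The H3K4me3 peak at the start had its summit 439 bp inside the gene in each of 3 libraries. Replicate 3 had a further H3K4me3 peak of 196 bp at the far end of the window, inside the neighbouring gene Cfap410. SMC3 was called in 1 library of each arm, with 200 bp in control replicate 2 and 153 bp in shYY1 replicate 2. Those 2 summits, 478 and 437 bp inside the gene, fell on the YY1 site.

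Aldolase splits the 6-carbon sugar, and Aldoa (chromosome 7, 126795234 to 126800994, minus strand) had some of the longest YY1 peaks of the 10 genes. They measured 746, 824 and 515 bp, the 96.3, 95.3 and 83.2 percentile of their lists. SMC3 peaks measured 449 and 416 bp in control replicates 1 and 2, with none in replicate 3, and 331, 226 and 178 bp in shYY1 replicates 1, 2 and 3. Where SMC3 was called, both control peaks were longer than all 3 shYY1 peaks, but with the missing control library the arms overlapped, at 288 ± 250 bp and 245 ± 78.2 bp (SD, n = 3; exact permutation p = 0.8). The sign of this difference, -43.3 bp, turned to 37.0 bp without control replicate 1 and to 20.5 bp without control replicate 2. All 8 YY1 and SMC3 summits lay 5 to 38 bp before the start at 126799254. The outer start at 126800447, whose window had a GC content of 52.7% and no CpG, had no peak of any target.

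**Figure D2:**
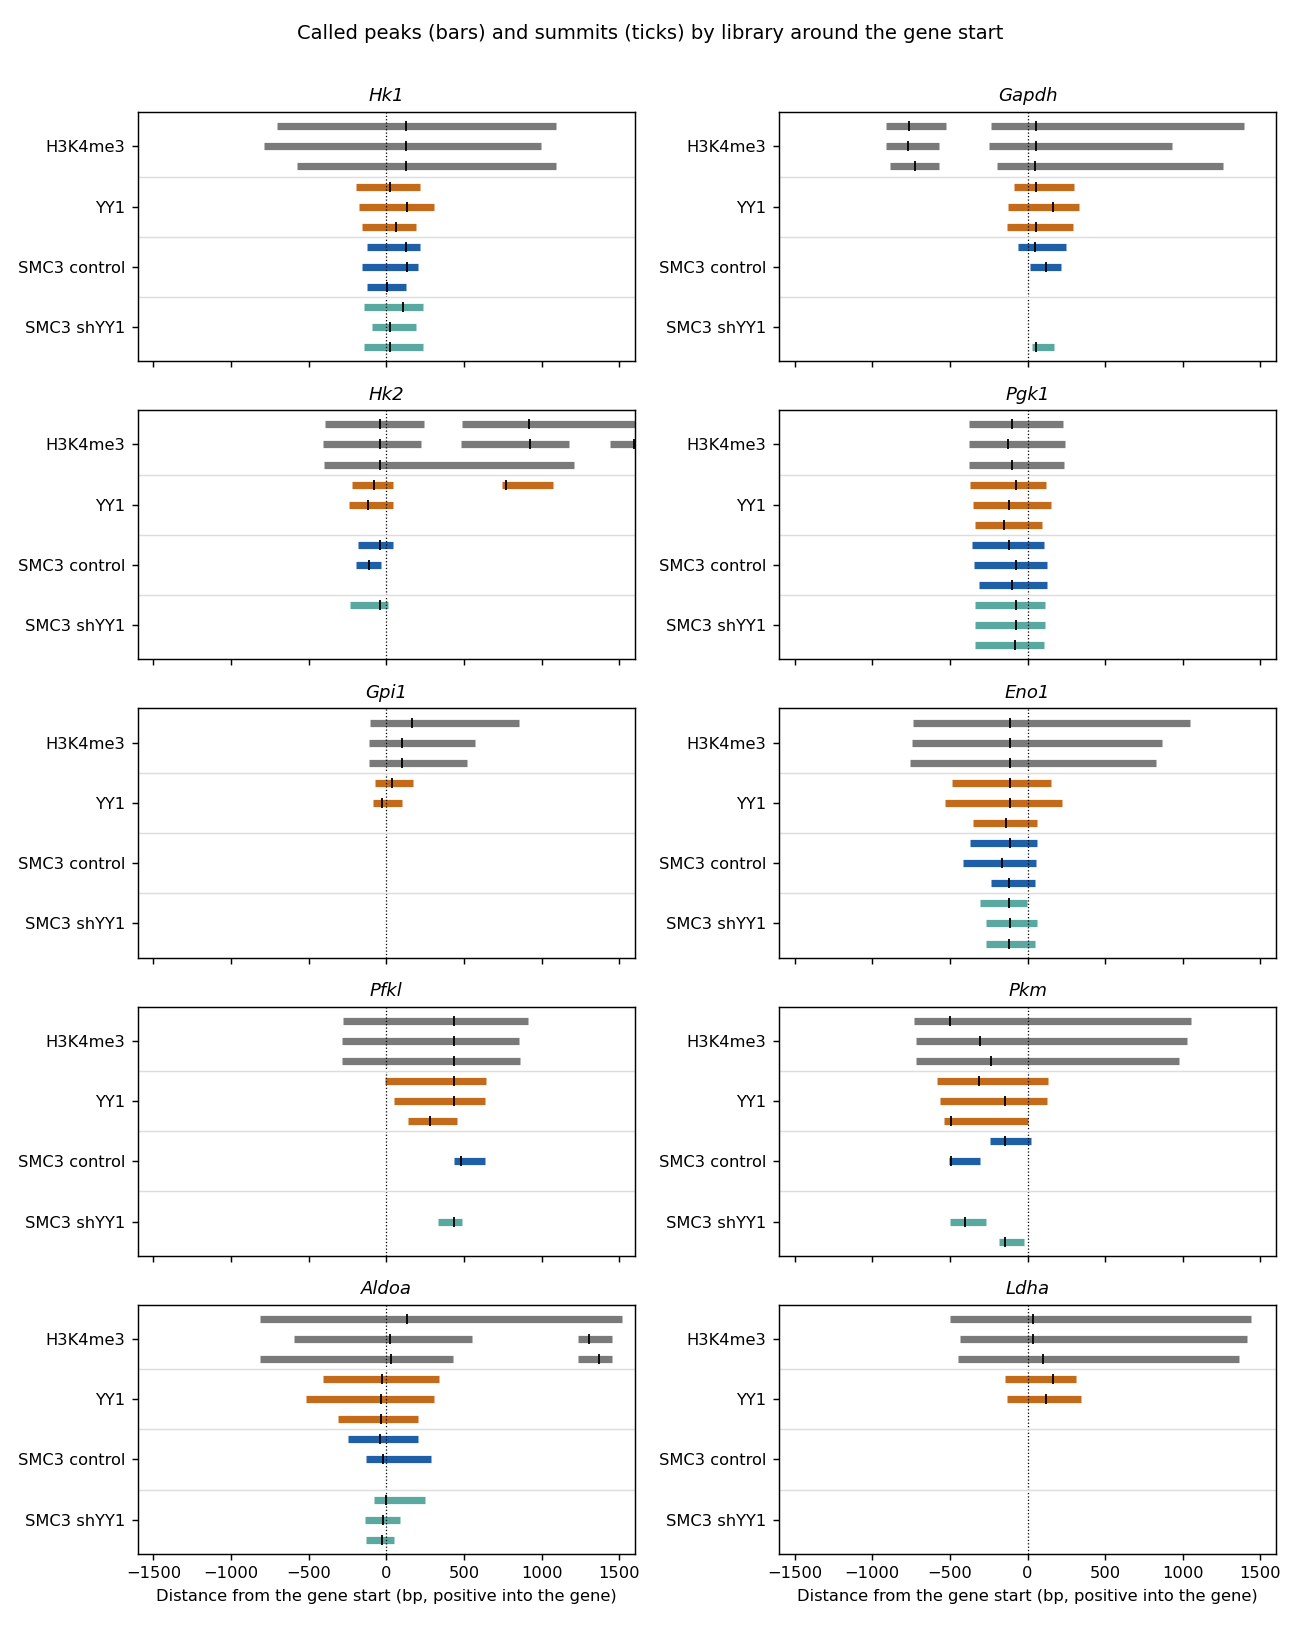
Called peaks (bars) and their summits (ticks) around 1 annotated start of each gene, in bp with positive values into the gene, with 3 rows of libraries per target (grey H3K4me3, orange YY1, blue SMC3 in control, green SMC3 in shYY1). YY1 and SMC3 bars sit inside the H3K4me3 bars, SMC3 bars share the place of the YY1 bars, and rows without a bar had no peak in the range shown; the inner sites of Hk1 and Hk2 lie beyond it.

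The ATP-making phase of the pathway starts with Gapdh, which couples oxidation of the sugar to NADH (chromosome 6, 125161852 to 125166467, minus strand). YY1 peaks of 384, 460 and 431 bp lay over its start at 125165773 in all 3 libraries. SMC3 peaks measured 307 and 199 bp in control replicates 1 and 2 and 140 bp in shYY1 replicate 3, with no peak in the other 3 libraries. Mean SMC3 coverage was 169 ± 156 bp in control against 46.7 ± 80.8 bp in shYY1 (SD, n = 3). That difference of -122 bp was smaller than the control SD and gave an exact permutation p of 0.4. It was -52.8 bp without control replicate 1, -206 bp without control replicate 3 and -29.5 bp without both libraries named for Abcam. A second H3K4me3 region, 125166298 to 125166687, lay across the end of the Gapdh span that faces Ncapd2 in 3 of 3 libraries and had neither YY1 nor SMC3.

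Phosphoglycerate kinase makes the first ATP of the payoff phase, and Pgk1 (chromosome X, 106187100 to 106203699, plus strand) had SMC3 peaks of nearly 1 length. SMC3 peaks measured 470, 471 and 439 bp in control and 454, 455 and 450 bp in shYY1. The 2 arms overlapped, with means of 460 ± 18.2 bp and 453 ± 2.65 bp (SD, n = 3) and an exact permutation p of 0.5. These peaks were among the longest of their own lists, at the 89.1 to 93.3 percentile, whereas H3K4me3 at Pgk1, 606, 619 and 614 bp, stood at the 33.1 to 44.5 percentile of its lists. Pgk1 had both the highest mean SMC3 percentile and the lowest mean H3K4me3 percentile of the 10 genes. YY1 peaks of 487, 503 and 437 bp covered nearly the same bases as SMC3.

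Enolase follows 2 steps later. Eno1 (chromosome 4, 150236708 to 150248879, plus strand) has annotated starts at 150236708, 150237197 and 150237224, and all 9 YY1 and SMC3 summits fell between the first and the second, at 150237031 to 150237083. YY1 peaks measured 642, 754 and 415 bp. SMC3 peaks measured 428, 472 and 283 bp in control and 304, 331 and 316 bp in shYY1. Control replicates 1 and 2 lay above every shYY1 library and control replicate 3, the shortest list, lay below every one. The means, 394 ± 98.9 bp and 317 ± 13.5 bp (SD, n = 3), differed by -77.3 bp with an exact permutation p of 0.4. The difference was -38.5 bp without control replicate 2 and -133 bp without control replicate 3.

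Pyruvate kinase closes the pathway with a second ATP-making step. At Pkm (chromosome 9, 59656576 to 59679372, plus strand) YY1 peaks were broad, 720, 688 and 539 bp, the 95.7, 89.7 and 85.4 percentile of their lists, while SMC3 peaks were short and did not share 1 place. In control replicate 1 the SMC3 peak ran from 59656336 to 59656598 and in control replicate 2 from 59656068 to 59656271, so that Pkm counts as having reproducible SMC3 without any position called in 2 control libraries. The shYY1 arm had the same pair of places, with 59656076 to 59656308 in replicate 2 and 59656393 to 59656551 in replicate 3. Summits at the downstream place coincided at 59656430 in both arms and in YY1 replicate 2, 146 bp before the start. The upstream SMC3 summits were 495 and 405 bp before it, and the summit of YY1 replicate 3 was 494 bp before it. The annotated non-coding gene Gm51708 (59633996 to 59655906) has an end inside the H3K4me3 region of this start. The upstream place therefore cannot be assigned to Pkm alone. The arms overlapped at 156 ± 138 bp in control and 131 ± 119 bp in shYY1 (SD, n = 3; exact permutation p = 0.8). The difference of -25.0 bp became -103 bp without control replicate 3 and turned to 40.3 bp without shYY1 replicate 1, 28.7 bp without control replicate 1 and 94.0 bp without both libraries named for Abcam. Both places lay inside the single YY1 region of 59655990 to 59656709. The second annotated start, 59657227, was covered by H3K4me3 in 3 of 3 libraries and by no YY1 or SMC3 peak within its 300-base window.

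Ldha encodes an enzyme that regenerates NAD+ by making lactate (chromosome 7, 46842274 to 46855627, plus strand). Its H3K4me3 peaks, 1940, 1852 and 1808 bp, were at the 97.8 to 98.7 percentile of length, the highest of the 10 genes in mean percentile, and ran over both annotated starts at 46845804 and 46847082. YY1 peaks of 460 and 476 bp in replicates 1 and 2 lay over the first start, at the 76.6 and 69.0 percentile of their lists. SMC3 was called in 0 of 6 libraries. A long H3K4me3 domain with YY1 was found here with no called SMC3, and a short one with YY1 and SMC3 in every library at Pgk1. The other genes did not follow this contrast. Hk1 and Eno1 had long H3K4me3 peaks too, at mean percentiles of 97.2 and 96.1, with SMC3 in 6 of 6 libraries. Gpi1 stood at 50.4 with SMC3 in 0 of 6.

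**Figure D3:**
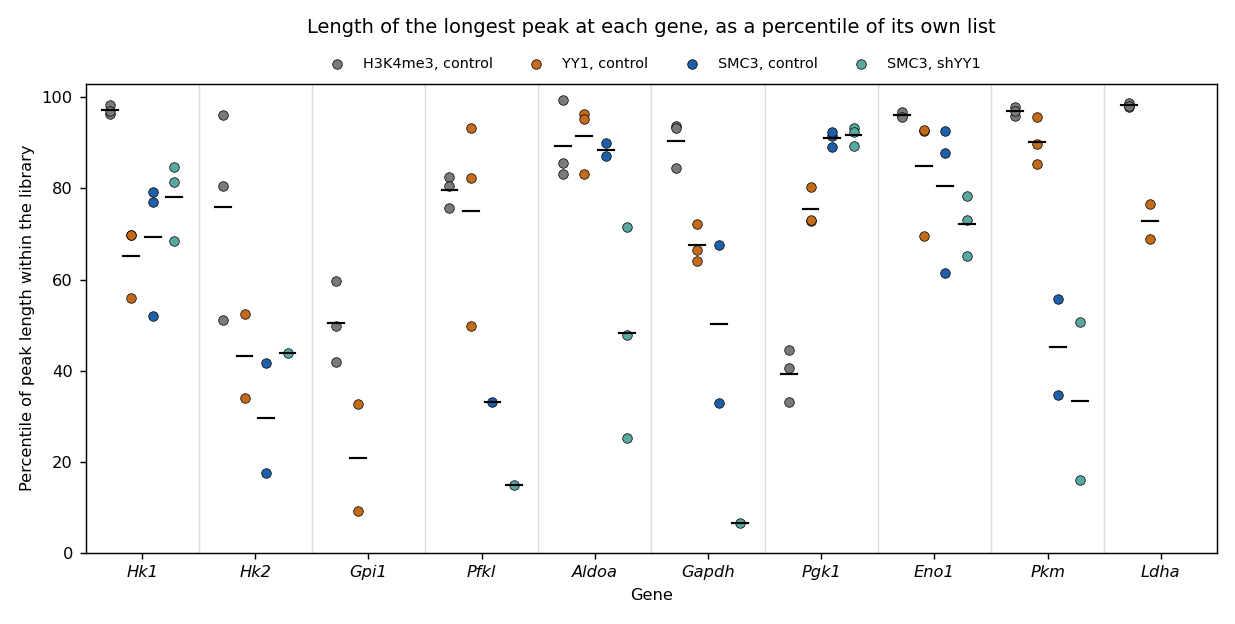
Percentile of the length of the longest peak at each gene within its own list (0 to 100), 1 point per library with a peak and a bar at their mean, coloured by target and arm. Pgk1 has SMC3 at 89.1 to 93.3 above H3K4me3 at 33.1 to 44.5, and Ldha has H3K4me3 at 97.8 to 98.7 and no SMC3 point.

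At these genes no SMC3 peak of either arm was found away from the YY1 peaks of control cells. All YY1 regions and summits here are those of control cells, as no YY1 list of shYY1 cells was used. All 41 SMC3 peaks in the windows, 21 in control and 20 in shYY1, lay wholly inside a region covered by YY1 peaks and wholly inside one covered by H3K4me3 peaks. Over whole lists, 86.3 to 93.7% of SMC3 peaks lay wholly inside YY1 regions and 89.2 to 92.0% wholly inside H3K4me3 regions. With the 41 SMC3 peaks pooled, the median summit at the 10 genes was 4 bp from the nearest YY1 summit of any library and the farthest 89 bp. By single library the medians at the 10 genes ran from 1 to 26 bp and those of whole lists from 10 to 13 bp. In control replicate 3 and shYY1 replicate 1 the median at the 10 genes was above that of the whole list. It was below in the other SMC3 libraries. Most summits were close to an annotated start: 22 of 33 YY1 and 31 of 41 SMC3 summits lay within 250 bp of one. The same share was not computed over whole lists, so this closeness is not shown to be particular to the 10 genes. The SMC3 summits beyond 1000 bp, 6 in all, were those of the inner Hk1 site. Peaks of the same site in several libraries are not independent, so these shares carry no test.

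The next comparison asked whether SMC3 at the glycolytic genes differed between control and shYY1 cells. SMC3 was called at 7, 8 and 3 of the 10 genes in control replicates 1, 2 and 3 and at 5, 6 and 6 in shYY1 replicates 1, 2 and 3. Control replicate 3 lay below every shYY1 library and both other control libraries above them. The means were 6 ± 2.65 and 5.67 ± 0.577 genes (SD, n = 3), a difference of -0.333 genes with an exact two-sided permutation p of 1. With 3 libraries a side the smallest p possible is 0.1, so no comparison could pass 0.05. The number of genes followed the length of the list: 2061 peaks gave 3 genes, 2631 gave 5, 3032 and 3213 gave 6, 4511 gave 7 and 4595 gave 8. Among all genes the shares with SMC3 moved with the lists too, at 20.6, 20.9 and 9.81% in control and 12.7, 14.7 and 14.2% in shYY1. Without control replicate 3 the difference was -1.83 genes, without control replicate 1 it was 0.167, without control replicate 2 0.667, without shYY1 replicate 1 0, and without both libraries named for Abcam 0.5. With the 2061 longest peaks of each SMC3 library it was 0.

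**Figure D4:**
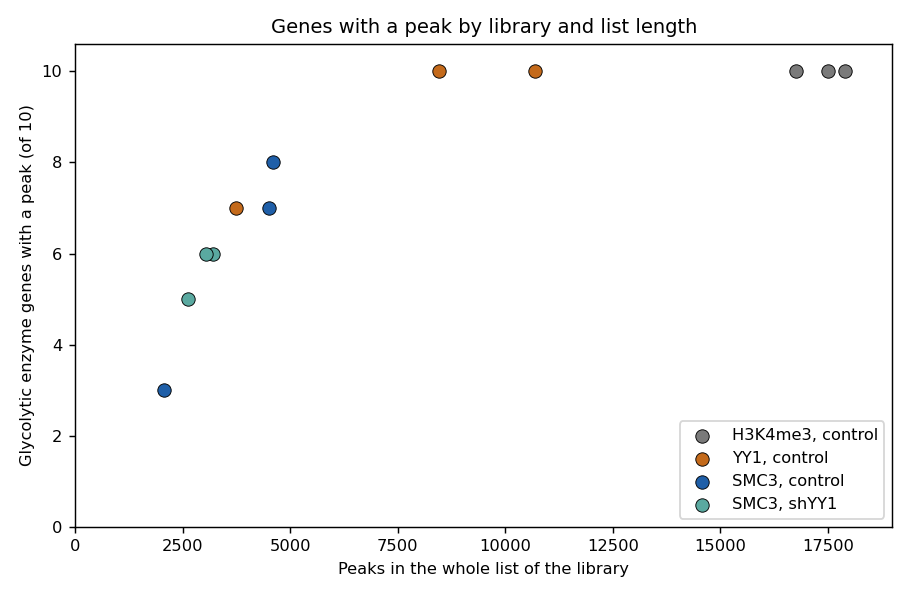
Number of the 10 genes with a peak (vertical axis) against the number of peaks in the whole list (horizontal axis), 1 point per library, coloured by target and arm. The 6 SMC3 points climb from 3 genes at 2061 peaks to 8 genes at 4595 peaks with the arms interleaved, and H3K4me3 and the 2 longer YY1 lists are at 10.

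No member had SMC3 in 3 libraries of 1 arm and 0 of the other. Over all genes 0.178% had it in 3 control and 0 shYY1 libraries and 0% the reverse. Hk2 and Gapdh had SMC3 in 1 more control library than shYY1 (more control than shYY1 libraries, 11.3% of all genes), and Aldoa in 1 more shYY1 library (4.18%). Both control replicates 1 and 2 but not 3 had SMC3 at 4 genes, Hk2, Aldoa, Gapdh and Pkm, a pattern of 7.87% of all genes. Mean SMC3 coverage was lower in shYY1 at all 8 genes with SMC3, but so it was at 72.6% of the 5776 genes with SMC3 in any library. At none of the 8 were the arms fully separated, as they were, with control higher, at 4% of those genes and, with control lower, at 0.485%. Exact permutation p ran from 0.4 to 1 over the 8 genes and was 1 for each after Benjamini-Hochberg adjustment.

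Summed over the windows, SMC3 covered 2837, 2841 and 1189 bp in control and 1926, 1944 and 1799 bp in shYY1, a difference of -399 bp (exact permutation p = 0.4, adjusted p = 0.64 over 8 comparisons). It was -949 bp without control replicate 3, -125 bp without control replicate 1 and -123 bp without control replicate 2. The numbers of peaks, 8, 9 and 4 against 6, 7 and 7, differed by -0.333. The windows took a larger share of the shYY1 lists: 0.177, 0.196 and 0.194% of control SMC3 peaks and 0.228, 0.218 and 0.231% of shYY1 SMC3 peaks. Every shYY1 library was above every control library, with an exact permutation p of 0.1, the smallest possible, and an adjusted p of 0.64. Each share rested on 4 to 9 peaks. The difference, 0.0365 percentage points, turned to -0.0162 with equal numbers of longest peaks and to -0.00172 with the longer peaks of each list. The mean length percentile of SMC3 peaks was 64.4 ± 7.74 in control and 56.4 ± 9.40 in shYY1 (SD, n = 3; exact permutation p = 0.5), and ranks from lists of unequal length do not show a change. The median SMC3 summit was 120 ± 12.6 bp from the nearest start in control and 94.5 ± 18.3 bp in shYY1 (SD, n = 3; exact permutation p = 0.2, adjusted p = 0.64), and no adjusted p of the 8 comparisons was below 0.64. This difference of -25.7 bp turned to 23.3 bp with a window of 5000 bp.

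Within control cells, YY1 was called at 10, 10 and 7 genes (35.9, 40.5 and 18.3% of all genes) and SMC3 at 7, 8 and 3. The difference of -3 genes (exact permutation p = 0.3) lay beside lists of 3750 to 10699 and 2061 to 4595 peaks. It was -1.5 genes without control SMC3 replicate 3 and -4.67 genes with the 2061 longest peaks of each SMC3 library. As a share of their lists, the windows took 0.154, 0.112 and 0.213% of YY1 peaks and 0.177, 0.196 and 0.194% of control SMC3 peaks (exact permutation p = 0.4). The ranges overlapped, with YY1 replicate 3 above every SMC3 library.

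Short motifs were counted on both strands in the 17 annotated start windows of the 10 genes. ACGTG occurred in 8 windows, belonging to 7 genes (Hk1, Hk2, Aldoa, Gapdh, Pgk1, Pkm and Ldha), and in 20.9% of the 21230 windows of protein-coding genes. The 2 overlapping windows of Aldoa share 1 match. CACGTG, which contains ACGTG on both strands, occurred in 1 window, that of Ldha, and in 7.83% of all. GGGCGG, bound by SP and KLF factors, occurred in 10 windows of 8 genes and in 46.2% of all. CCAAT, bound by NF-Y, occurred in 8 windows of 5 genes and in 38.2%. For both, the overlapping windows of Aldoa and those of Eno1 share matches, so some matches count in more than 1 window. CCATNTT, a form of the YY1 motif, occurred in 1 window, that of Gapdh, and in 15.1% of all. This match lay 238 bp before the start, outside the YY1 peaks of Gapdh. The shorter GCCAT occurred in 6 windows of 4 genes (Gpi1, Aldoa, Eno1 and Ldha) and in 38.8% of all. At Aldoa and Ldha it was in the windows of the starts at 126800447 and 46847082, over which no YY1 peak lay. The overlapping windows of Eno1 share 1 match. A match is only a description of the letters, and its absence says nothing about what bound outside the window.

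The ACGTG matches of Pgk1 began 150 and 131 bp before the start, inside the stretch of YY1 and SMC3 summits marked in its sequence above. At Ldha the YY1 summits, 166 and 120 bp inside the gene, fell beyond the matches, which lay before the start. Part of its window is shown for that reason, 146 bases of the plus strand at chr7:46845644-46845789, with the ACGTG matches of both strands in capitals.
Ldha: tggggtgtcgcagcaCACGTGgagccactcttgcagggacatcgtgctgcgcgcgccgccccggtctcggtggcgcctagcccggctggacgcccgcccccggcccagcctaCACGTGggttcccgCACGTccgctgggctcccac

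Other genes around the pathway, 65 in all, carried H3K4me3 at 49, YY1 at 35, control SMC3 at 21 and shYY1 SMC3 at 14, each in at least 2 of 3 libraries. Over all protein-coding genes the shares were 53.2, 34.6, 17.5 and 13.2%, in the same order. These shares also stand beside the counts of the single lists that follow, none of which was tested. Of 15 isoenzymes and steps not among the 10, H3K4me3 lay at 9, YY1 at 5, control SMC3 at 2 and shYY1 SMC3 at 1. The 2 were Pfkp, another phosphofructokinase subunit, called in 2 control and 0 shYY1 libraries, and Pgam1, phosphoglycerate mutase, with 2 and 2. Tpi1, triose phosphate isomerase, had YY1 in 2 libraries and SMC3 in none, as did Gpi1 and Ldha, but its YY1 peaks lay more than 1000 bp from a start. Pgk2, Pgam2, Pklr, Ldhb and Ldhc had no peak of any target.

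Among 5 regulators of phosphofructokinase activity, YY1 lay in at least 2 of 3 libraries at 4, control SMC3 at 3 (Pfkfb2, Pfkfb3 and Pfkfb4) and shYY1 SMC3 at 0. Even so, Pfkfb2, Pfkfb3, Pfkfb4 and Tigar each had SMC3 in 1 shYY1 library. All 5 had H3K4me3, and over all genes with it the shares were 64.8, 32.6 and 24.7%. Pfkfb4, a bifunctional enzyme that sets the level of an activator of phosphofructokinase, had SMC3 in 3 control libraries and 1 shYY1 library, with YY1 in 2. Pfkfb4 was named because its SMC3 calls differed between the arms. SMC3 in more control than shYY1 libraries was found at 11.3% of all genes. Of the 4 glucose transporters, Slc2a1 had YY1 in 3 libraries, with SMC3 in 3 of the control and 2 of the shYY1 libraries, Slc2a3 had YY1 in 2 and no SMC3, and Slc2a2 had no peak. Adpgk, an enzyme that phosphorylates glucose with ADP, had H3K4me3 and YY1 in 3 libraries each, with SMC3 called in 2 of the control libraries and 1 of the shYY1 libraries.

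By the same count of at least 2 of 3 libraries, genes for the exit of pyruvate and lactate, 14 in all, had YY1 at 9, control SMC3 at 6 and shYY1 SMC3 at 5. Mpc2 of the mitochondrial pyruvate carrier, Pdp1, which activates pyruvate dehydrogenase, and Bsg, the chaperone of lactate transporters, had SMC3 in 6 of 6 libraries. Of 7 genes of the pentose phosphate branch, YY1 lay at 5 and SMC3 at 2 in each arm, with Rpia called in 6 of 6 libraries. G6pdx, the entry enzyme of that branch, had YY1 in 3 libraries and SMC3 in 0. Of 6 gluconeogenic genes, H3K4me3 lay at 2 and SMC3 at 1, Pcx, in 6 of 6 libraries. Of 10 transcriptional regulators, YY1 lay at 6, control SMC3 at 5 and shYY1 SMC3 at 4. At Hif1a and Myc SMC3 was called in 3 of the control and 2 of the shYY1 libraries, and at Arnt, the partner of HIF1A, and Max, the partner of MYC, in 2 and 3.

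By pattern over the 12 libraries, 1355 other genes had, as Hk1, Pgk1 and Eno1 did, every target in every library, among them Bsg, Mpc2 and Pdp1. The pattern of Gpi1 and Ldha was shared by 1576 other genes, with Slc2a3, Tpi1 and Gapdhs, a sperm isoenzyme of Gapdh, among them. At Gapdhs neither H3K4me3 nor YY1 was called within 1000 bp of a start, and at Tpi1 YY1 was not. The pattern of Gapdh was shared by 90 genes, including Adpgk and Pfkfb3, that of Aldoa by 266, that of Pkm by 130, that of Pfkl by 41 and that of Hk2 by 32.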

How the data were processed

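CUT&Tag peak lists of 12 libraries were used. The deposited lists give, per the file headers, the start, end and summit offset of each peak in bp, with no score or count. The tools named in the submitters' processing notes are MACS2 2.2.9.1, Picard 3.1.1, cutadapt 4.5 and Bowtie2 2.5.1, with the build mm10. Their settings, the peak threshold and any use of IgG: not given in the sources used here. Starts were read as 0-based, as in BED files, and 1 was added.

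Gene spans were read from RefSeq genes on GRCm38.p6, gene starts and strands from its promoter table (all 10 genes matched; where a gene had no entry, both ends of its span served). A peak counted for a gene when it shared at least 1 bp with the span widened by 2500 bp. Peak length percentiles were taken within each list. Group means were compared with exact two-sided permutation tests over the 20 assignments of 6 libraries, adjusted by Benjamini-Hochberg over 8 comparisons. The tests of single genes were added after the values were seen. Python 3.11.15 was used, and the code was tested on simulated data.

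The 10 genes and the other lists were chosen with earlier results of these data known. All 10 genes were named by rule; of the others, those with SMC3 in all libraries of 1 arm and at most 1 of the other, then those with SMC3 in 6 of 6, up to 4 per list, and up to 3 with a gene's pattern over the libraries. Other genes were chosen after their values were seen. Alternatives were windows of 1000 and 5000 bp, gene starts only, 50% overlap, longer peaks, equal list lengths, joined peaks (1000 bp), 3 of 3 libraries, single replicates or both Abcam libraries left out, and a replicate block. No stricter threshold could be set, as the lists hold no score.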

Additional observations from a re-analysis of the deposited data

How the results depend on the processing

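No comparison between groups could pass 0.05 in any setting, so that no p here bears on stability. The difference in genes with SMC3 (-0.333) was 0.5 without both Abcam libraries, 0 with equal list lengths, and -1.83 to 0.667 with 1 replicate left out. The difference in SMC3 peaks (-0.333) was likewise 0.5 without both Abcam libraries and -1.83 to 0.667 with 1 replicate left out. The share of the list turned from 0.0365 to -0.00172 with longer peaks and to -0.0162 with equal list lengths. The distance from a start turned from -25.7 bp to 23.3 bp with a window of 5000 bp. Genes with control SMC3 numbered 3 when 3 of 3 libraries were asked for and 3 without both Abcam libraries, 4 with longer peaks, 4 with equal list lengths and 3 to 7 with 1 replicate left out, when both remaining libraries were needed by construction. Genes with shYY1 SMC3 numbered 3 with longer peaks. For single genes the difference in SMC3 coverage turned to 32.0 bp at Hk1 near starts, 80.3 bp at Hk2 with equal list lengths and 94.0 bp at Pkm without both Abcam libraries; with 1 replicate left out it ran from -188 to 37.0 bp at Aldoa, -66.7 to 51.0 bp at Pfkl, -103 to 40.3 bp at Pkm, -140 to -16.0 bp at Hk1, -129 to -1.67 bp at Hk2, -206 to -52.8 bp at Gapdh, -17.5 to -1.5 bp at Pgk1 and -133 to -38.5 bp at Eno1. The difference of control SMC3 from YY1 in share of the list (0.0294) ran from 0.00568 without YY1 replicate 2 to 0.0563 without YY1 replicate 3. It was 0.0991 with equal list lengths. The difference of shYY1 SMC3 from control SMC3 in length percentile (-8.08) ran from -11.9 to -2.83 with 1 replicate left out. The cause was not tested. The remaining 134 values for the main comparisons kept their direction, not always their size. Counts among them stayed within a set ratio of the main count. They include a fall from 10 to 7 genes with YY1 when 3 of 3 libraries were asked for. The difference in length percentile shrank to -0.336 with longer peaks. The 134 also hold the 8 values of the replicate block, which equal the main differences by construction and say nothing about stability. Same-numbered control and shYY1 libraries correlated at 0.04, 0.03 and -0.05 in their deviations over 6175 SMC3 regions. Differently numbered ones ran from -0.07 to 0.04. The calls thus showed no pairing by number, which cannot exclude that same-numbered libraries were handled together. The replicate block leaves each difference as it is and alters only the p. For the difference in genes with SMC3 (-0.333) the exact sign-flip permutation p was 1. For that in share (0.0365) it was 0.25, the smallest 3 pairs allow. Depth is unknown, and a missing call in a short list is not a lack of binding.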
